A study of Homo sapiens with 24 samples.

Results

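The keratins are the proteins of the intermediate filaments that give epithelial cells and their appendages mechanical strength. Genes were taken as keratins where RefSeq lists a protein-coding gene on hg38 whose symbol is KRT followed by a digit, which gave 55 of the 19866 protein-coding genes examined. The 28 type I genes lie in a cluster on chromosome 17 and 27 genes lie in a cluster on chromosome 12, which holds all type II genes and the type I gene KRT18. By the keratin nomenclature, 17 were hair keratins, 9 were keratins of the inner root sheath and companion layer of the hair follicle, and 29 were epithelial keratins.

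A keratin filament is built from pairs of 1 acidic type I and 1 basic type II chain, and each epithelium uses its own pairs. KRT5 and KRT14 mark basal cells of stratified epithelia, KRT1 and KRT10 the cells above them, and KRT8 and KRT18 simple epithelia, while hair keratins are made in the cortex and cuticle of the growing hair. H4K20me3, trimethylation of lysine 20 on histone H4, marks silent heterochromatin, so a peak over a keratin gene shows where this mark lay and does not measure how much of that keratin was made.

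H4K20me3 was mapped by CUT&RUN, in which an antibody-tethered nuclease releases the DNA around a marked histone, in HN-SCC-151, an HPV-negative line of squamous cell carcinoma of the head and neck, wild type by its label. In the inhibitor arm, 3 libraries came from cells given A-196 at 2.5 µM for 6 days, and 3 from cells given DMSO for the same time. A-196 blocks SUV420H1 and its paralog SUV420H2, which add methyl groups to H4K20. In the siRNA arm, 4 libraries came from cells given siRNAs against SUV420H1 for 6 days (siSUV420H1), and 4 from cells given control siRNAs (siNC). All 4 groups shared 1 cell line, so each comparison concerns HN-SCC-151 alone. The design text gives 3 dishes per condition, while the siRNA groups held 4 libraries each, so p-values reflect only how far these libraries spread, which may in part be technical.

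The value for a gene was the number of kb under broad peaks within its span plus 2 kb on each side. With at least 200 bp covered in a library, a gene was called marked there. It was called lost where every control library and no treated library was marked, gained in the opposite case, and lower where every treated library had fewer covered kb than every control. The lists hold no read counts, so the depth behind a peak was unknown. The DMSO and A-196 libraries covered 148 Mb ± 4.29 and 96.9 Mb ± 15.0 of the genome (SD, n = 3 each), and the siNC and siSUV420H1 libraries 188 Mb ± 5.49 and 124 Mb ± 4.70 (SD, n = 4 each). Of the epithelial markers examined, KRT5, KRT8, KRT14, KRT18, KRT19, EPCAM and CDH1 had no covered base in any of the 14 libraries. The eighth marker, TP63, was covered in all of them, over 222 kb on average with DMSO and 123 kb with siNC. Peaks of a silencing mark do not otherwise check the identity of the cells.

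Of the 55 keratins, 23 had a covered base in at least 1 library and 32 had none in any. The 32 included the basal pair KRT5 and KRT14, the suprabasal pair KRT1 and KRT10, the simple-epithelial genes KRT8, KRT18 and KRT19, and KRT6A, KRT6B, KRT6C and KRT17, which are made in stressed and wounded epithelium. Among hair keratins 14 of 17 had a covered base somewhere, among root sheath keratins 3 of 9, and among epithelial keratins 6 of 29. These shares were not tested against each other, because neighbouring keratins lie under the same peaks.

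**Figure D1:**
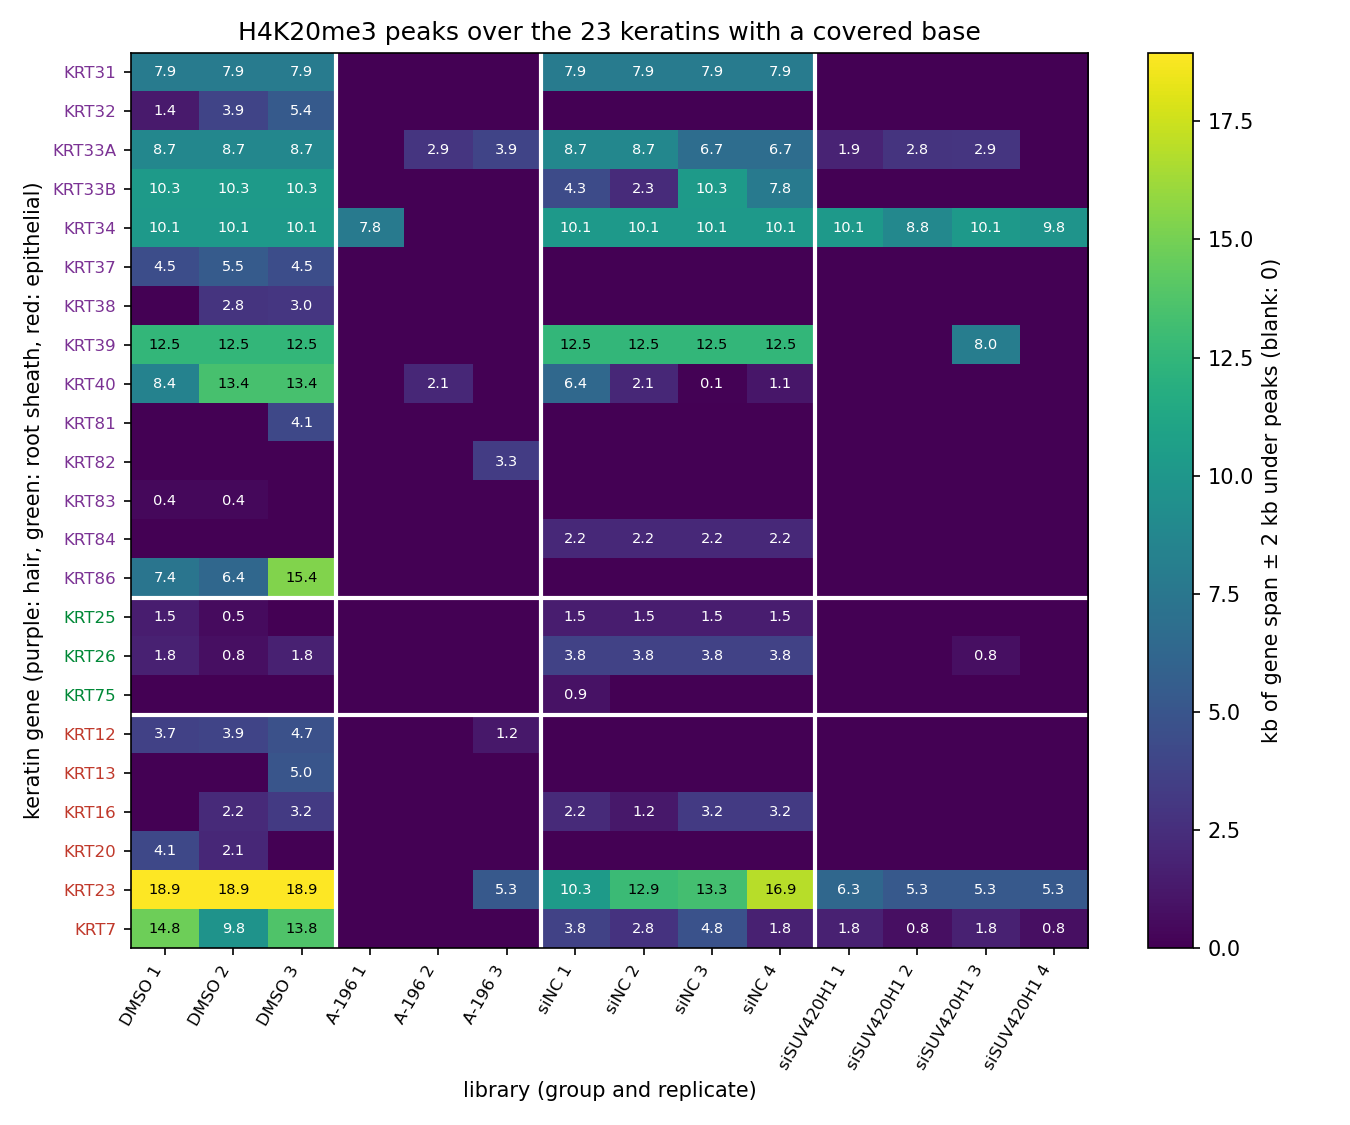
Heatmap of covered kb (gene span plus 2 kb on each side, colour scale from 0) for the 23 keratins with a covered base, with 1 row per gene grouped by class and 1 column per library. The 3 A-196 columns are almost empty, and KRT34 stays near 10.1 kb in the siSUV420H1 columns, where KRT31 and KRT33B are at 0.

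In the A-196 arm, 8 keratins were lost, 13 were lower in every A-196 library, none was gained and none was higher. The 8 were the hair keratins KRT31, KRT32, KRT33B, KRT37, KRT39 and KRT86, the root sheath keratin KRT26 and the epithelial keratin KRT7. The other 5 lower keratins were KRT33A, KRT34, KRT40, KRT12 and KRT23. The keratins' shares, 14.5% lost and 23.6% lower, stood beside 1.78% lost and 5.51% lower over all coding genes. These losses were not all separate events, as KRT31, KRT33B and KRT37 lay in the same region of peaks joined over the libraries. Over all coding genes 0.810% were gained and 1.09% were higher. Among genes marked in every DMSO library, 8 of 13 keratins were lost, beside 18.0% of 1958 such genes. The median difference was -3.70 kb over the 21 keratins with a covered base in the arm and 1.12 kb over the 5659 genes with one.

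No single gene passed a test in this arm. With 3 libraries against 3, the exact two-sided permutation test can give no p below 0.1, and the 13 lower keratins stood at that value (Benjamini-Hochberg adjusted p = 0.431 over 5659 genes). The exact permutation test called 0% of all genes at the adjusted threshold, and no keratin had an unadjusted p under 0.05. The loss calls of KRT26 and KRT32 ended when flanks were left out, and that of KRT31 with flanks of 5 kb. That of KRT26 also ended with a smallest overlap of 1000 bp, and that of KRT32 with only peaks at or above the median width.

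The type I hair keratins, acidic chains of the hair shaft, held the most covered length. KRT39 was covered over 12.5 kb in each of the 3 DMSO libraries, which is its whole span and both flanks and so the longest value possible, and over 0 kb in each A-196 library. KRT33B was covered over 10.3 kb in each DMSO library and 0 kb in each A-196 library. KRT31, a keratin of the hair cortex, was covered over 7.89 kb in each DMSO library and 0 kb in each A-196 library. All 3 genes were covered from end to end in every DMSO library, so their equal values are set by the length of the window, and the groups did not overlap.

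KRT40 was covered over 8.42, 13.4 and 13.4 kb in DMSO libraries 1 to 3 and over 0, 2.14 and 0 kb in A-196 libraries 1 to 3. KRT34 was covered over 10.1 kb in each DMSO library and over 7.82, 0 and 0 kb with A-196. In each of these genes 1 A-196 library kept a peak, library 2 for KRT40 and library 1 for KRT34, and neither reached the lowest DMSO value. KRT33A, a near-identical copy of KRT33B, was covered over 8.74 kb in every DMSO library and over 0 to 3.91 kb with A-196. KRT37 was covered over 4.79 kb ± 0.577 and KRT32, a keratin of the hair cuticle, over 3.55 kb ± 2.02 with DMSO (SD, n = 3), and both were at 0 in all A-196 libraries. KRT38 was covered in DMSO libraries 2 and 3 alone, and KRT35 and KRT36 in no library.

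The promoters of hair keratins show what the peaks covered at the gene starts. RefSeq promoter sequences, from 250 bases before to 50 after a gene's start on GRCh38.p14, were found for 34 of the 55 keratins. The 4 printed here belong to KRT39, KRT33B and KRT31, which were lost with A-196, and to KRT34, which stayed covered after the siRNAs. All 4 run 5′ to 3′ on the minus strand of chromosome 17, KRT39 at chr17:40966899-40967198, KRT33B at chr17:41369764-41370063, KRT31 at chr17:41397559-41397858 and KRT34 at chr17:41382257-41382556. Capitals mark matches to CTTTGAA, the core that LEF1, a transcription factor of the Wnt pathway in the hair matrix, is known to bind, and to TATAAA, each searched on both strands, with no overlap between them.
KRT39: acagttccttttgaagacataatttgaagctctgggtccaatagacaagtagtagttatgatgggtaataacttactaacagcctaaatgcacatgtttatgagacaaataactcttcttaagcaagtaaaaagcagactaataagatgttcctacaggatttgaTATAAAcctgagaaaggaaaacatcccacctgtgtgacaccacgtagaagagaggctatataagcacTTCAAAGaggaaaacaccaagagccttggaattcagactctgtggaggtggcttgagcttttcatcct
KRT33B: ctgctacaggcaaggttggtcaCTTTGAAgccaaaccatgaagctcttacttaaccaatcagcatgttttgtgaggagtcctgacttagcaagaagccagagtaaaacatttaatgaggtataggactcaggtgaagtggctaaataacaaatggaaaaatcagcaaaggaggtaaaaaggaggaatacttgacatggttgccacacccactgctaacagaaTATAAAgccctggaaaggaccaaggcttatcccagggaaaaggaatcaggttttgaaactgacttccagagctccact
KRT31: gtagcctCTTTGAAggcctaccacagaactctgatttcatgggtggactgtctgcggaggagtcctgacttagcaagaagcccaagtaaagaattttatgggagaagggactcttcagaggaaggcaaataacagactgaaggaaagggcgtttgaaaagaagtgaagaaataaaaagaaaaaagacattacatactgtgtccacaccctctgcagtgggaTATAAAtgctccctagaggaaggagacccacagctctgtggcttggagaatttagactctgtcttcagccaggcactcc
KRT34: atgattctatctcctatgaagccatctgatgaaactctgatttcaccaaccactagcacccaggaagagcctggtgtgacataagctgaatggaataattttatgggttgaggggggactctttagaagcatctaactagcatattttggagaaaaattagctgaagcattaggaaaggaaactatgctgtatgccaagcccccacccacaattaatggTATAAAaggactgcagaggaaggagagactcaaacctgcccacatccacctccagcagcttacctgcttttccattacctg

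In KRT33B and KRT31 the CTTTGAA match begins 228 and 243 bases before the start and the TATAAA match 28 and 29 bases before it. In KRT39 CTTTGAA lies on the opposite strand, where it reads TTCAAAG, 18 bases before the start. KRT34 holds a TATAAA match 31 bases before the start and no CTTTGAA match. The promoter of KRT40, which is not printed, holds neither match, although its A-196 difference in covered kb was larger than that of KRT33B. CTTTGAA was found in 8 of 14 hair keratin promoters (57.1%), KRT31, KRT32, KRT33A, KRT33B, KRT35, KRT38, KRT39 and KRT85. It was found in 0 of 8 root sheath promoters, 0 of 12 epithelial promoters and 3.64% of 15843 promoters of coding genes of the same length. TATAAA was found in 71.4% of hair, 75.0% of root sheath and 33.3% of epithelial keratin promoters and in 9.83% of all. These matches describe letters in the window and not bound sites.

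Peaks covered 7 ± 1 keratin promoters per DMSO library and 1 ± 0 per A-196 library (SD, n = 3 each), all of them hair keratin promoters. The promoters of KRT31, KRT33A, KRT33B and KRT39 were covered in every DMSO library and no A-196 library, 4 of 34 (11.8%) beside 1.18% of all 15843 promoters. No root sheath or epithelial keratin promoter in the table was covered in any of the 14 libraries. The epithelial keratins KRT7, KRT13, KRT16 and KRT23 had covered bases, but their promoters were not among the 34. KRT23 was covered over its whole window in every DMSO library, so covered promoters were not shown to be limited to hair keratins. With the siRNAs, 4.75 ± 0.5 keratin promoters were covered with siNC and 1.5 ± 0.577 with siSUV420H1 (SD, n = 4 each), and KRT31 alone was lost by this measure, beside 0.833% of all promoters. The KRT34 promoter was covered in all 4 siSUV420H1 libraries and in 1 of 3 A-196 libraries.

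Among the 6 type II hair keratins, KRT86, a cortex keratin whose mutation causes the hair disorder monilethrix, was the 1 lost gene. It was covered over 7.36, 6.36 and 15.4 kb in DMSO libraries 1 to 3 and 0 kb in each A-196 library. DMSO library 3 was the highest, with a peak that ran further into the span. The span overlaps that of KRT81, and KRT81 was covered in that library alone, over 4.09 kb. KRT83 had 0.398 kb covered in DMSO libraries 1 and 2, at the edge of its flank. KRT82 was the 1 keratin with more covered length after A-196, 3.34 kb in A-196 library 3 and 0 in the other 5 libraries of the arm. How reads shared by the near-identical genes KRT81, KRT83 and KRT86, or KRT33A and KRT33B, were placed is not given in the sources used here, so a value of 1 of them can include reads of another.

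Of the root sheath keratins, KRT26 was lost with A-196, from 1.43 kb ± 0.577 with DMSO (SD, n = 3), all in its flank. KRT25, its neighbour, had 1.54, 0.542 and 0 kb covered in DMSO libraries 1 to 3 and none with A-196. The type II root sheath keratins KRT71, KRT72, KRT73, KRT74 and KRT75 had no covered base in this arm.

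Of the epithelial keratins, KRT7, KRT23, KRT12, KRT13, KRT16 and KRT20 carried a peak in at least 1 DMSO library. KRT7, a type II keratin of simple and glandular epithelia, was covered over 14.8, 9.76 and 13.8 kb in DMSO libraries 1 to 3 and 0 kb in each A-196 library. KRT23, a type I keratin, was covered over 18.9 kb in every DMSO library, its whole span and flanks, and over 0, 0 and 5.30 kb with A-196. Both genes had every A-196 library below every DMSO library, and KRT23 had the longest mean covered length of all keratins with DMSO. KRT12, a keratin of the cornea, was covered over 4.11 kb ± 0.525 with DMSO and over 1.22 kb in A-196 library 3 alone. Without that library KRT12 and KRT23 also met the definition of lost, which makes 3 epithelial keratins in place of 1.

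**Figure D2:**
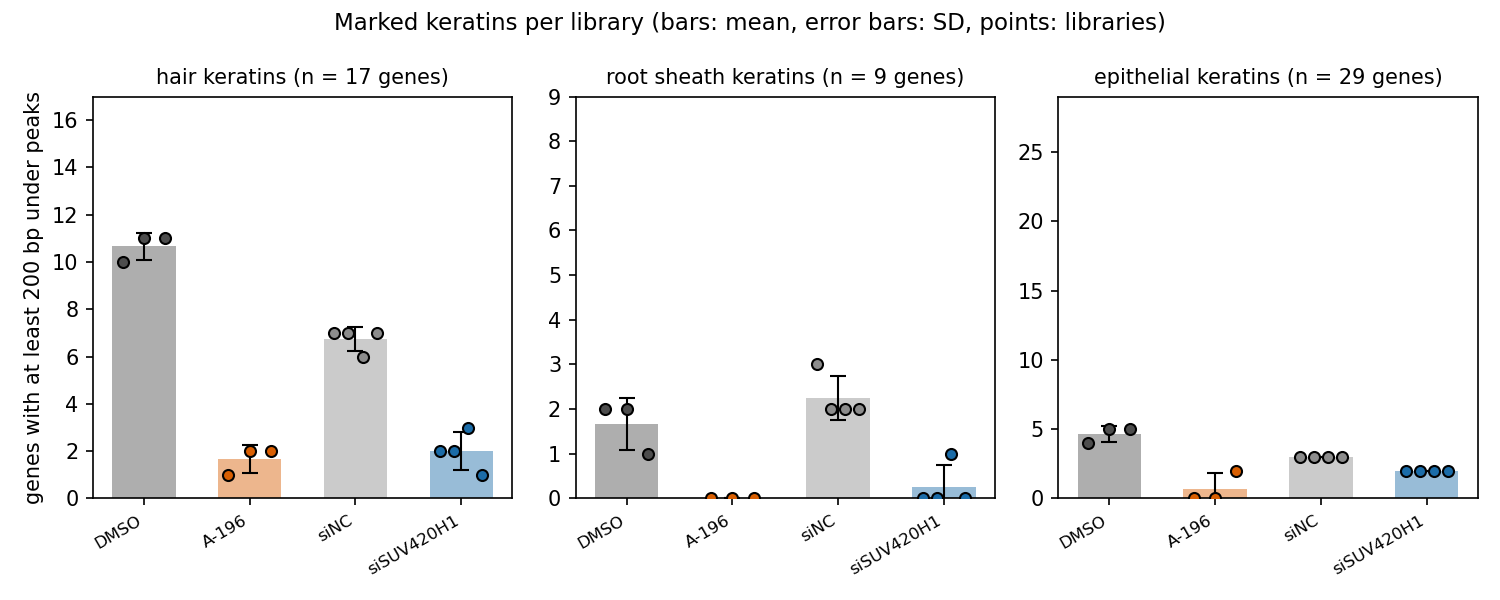
Number of marked keratins per library (points) with the group mean (bars, from 0) and SD (error bars), for hair, root sheath and epithelial keratins; the vertical axes end at the number of genes in each class. Hair keratins were at 10 to 11 in DMSO and 1 to 2 in A-196 libraries.

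By class, 10.7 ± 0.577 of 17 hair keratins were marked per DMSO library and 1.67 ± 0.577 per A-196 library (SD, n = 3 each). For root sheath keratins the means were 1.67 ± 0.577 and 0 of 9, and for epithelial keratins 4.67 ± 0.577 and 0.667 ± 1.15 of 29. Lost genes made up 35.3% of hair, 11.1% of root sheath and 3.45% of epithelial keratins, beside 1.78% of all coding genes. The classes also differed in how many members were marked in the controls. In every DMSO library 9 hair, 1 root sheath and 3 epithelial keratins were marked. Of them 6, 1 and 1 were lost, beside 18.0% of all genes marked in every DMSO library. Of the 28 keratins on chromosome 17, 6 (21.4%) were lost, and of the 27 on chromosome 12, 2 (7.41%) were lost.

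In the siRNA arm, 5 keratins were lost, 10 were lower in every siSUV420H1 library, none was gained and none was higher. The 5 were the hair keratins KRT31, KRT33B and KRT84, the root sheath keratin KRT25 and the epithelial keratin KRT16. KRT33A, KRT39, KRT40, KRT26 and KRT23 were the other 5 lower genes. The keratins' shares, 9.09% lost and 18.2% lower, stood beside 2.98% lost and 6.74% lower over all coding genes. Here too KRT31 and KRT33B lay in the same region of joined peaks. Over all coding genes 0.342% were gained and 2.08% were higher. Among genes marked in every siNC library, 5 of 11 keratins were lost, beside 21.5% of 2754 such genes. The median difference was -2.47 kb over the 13 keratins with a covered base and -1.25 kb over the 3985 genes with one.

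The 10 lower keratins had the smallest p that 4 libraries against 4 allow, 0.0286 in the exact two-sided permutation test, and an adjusted p of 0.0650 over 3985 genes. The exact permutation test called 0% of all genes after adjustment, while 1751 genes shared that smallest unadjusted p. No keratin therefore passed the threshold of 0.05 after adjustment in either arm.

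KRT39 was covered over 12.5 kb in each of 4 siNC libraries, as in DMSO, and over 0, 0, 8 and 0 kb in siSUV420H1 libraries 1 to 4. KRT31 was covered over 7.89 kb in each siNC library and 0 kb in each siSUV420H1 library. KRT33B was covered over 4.32, 2.32, 10.3 and 7.81 kb with siNC and 0 kb in each siSUV420H1 library. The groups did not overlap in these 3 genes, and siSUV420H1 library 3 alone kept KRT39 from being called lost.

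KRT33A was covered over 8.74, 8.74, 6.74 and 6.74 kb with siNC and over 1.91, 2.83, 2.91 and 0 kb with siSUV420H1. KRT40 was covered over 6.42, 2.14, 0.135 and 1.14 kb with siNC and 0 kb with siSUV420H1. The siNC values of KRT40 were all below its lowest DMSO value, so less of this gene was under peaks in the controls of this arm. KRT34 was covered over 10.1 kb in each siNC library and over 10.1, 8.82, 10.1 and 9.82 kb with siSUV420H1. Its groups overlapped, with a difference of -0.42 kb (exact permutation p = 0.429, adjusted p = 0.569).

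KRT84, a type II hair keratin, was covered over 2.19 kb in each siNC library, most of it in its flank, and 0 kb with siSUV420H1. No other type II hair keratin was marked in this arm. The root sheath keratin KRT26 was covered over 3.76 kb in each siNC library and over 0, 0, 0.763 and 0 kb with siSUV420H1. KRT25 was covered over 1.54 kb in each siNC library, in its flank only, and 0 kb with siSUV420H1.

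Among epithelial keratins, KRT23 was covered over 10.3, 12.9, 13.3 and 16.9 kb with siNC and over 6.30, 5.30, 5.30 and 5.30 kb with siSUV420H1. KRT16, which is made with KRT6 in wounded and hyperproliferative epidermis, was covered over 2.22, 1.22, 3.22 and 3.22 kb with siNC and 0 kb with siSUV420H1. KRT7 was covered over 3.76, 2.76, 4.76 and 1.76 kb with siNC and over 1.76, 0.758, 1.76 and 0.758 kb with siSUV420H1. The groups of KRT23 and KRT16 did not overlap, while those of KRT7 met at 1.76 kb (difference -2 kb, exact permutation p = 0.0857, adjusted p = 0.175). When only the gene spans were counted, without flanks, 2 keratins were lost in this arm in place of 5, KRT31 and KRT26. The calls of KRT16, KRT25, KRT33B and KRT84 ended. With flanks of 5 kb, 4 keratins were lost, and the calls of KRT25, KRT31 and KRT33B ended. Those of KRT16 and KRT84 also ended with only peaks at or above the median width or the same number of widest peaks per library.

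By class, 6.75 ± 0.5 of 17 hair keratins were marked per siNC library and 2 ± 0.816 per siSUV420H1 library (SD, n = 4 each). For root sheath keratins the means were 2.25 ± 0.5 and 0.25 ± 0.5 of 9, and for epithelial keratins 3 ± 0 and 2 ± 0 of 29. Of the 6 hair, 2 root sheath and 3 epithelial keratins marked in every siNC library, 3, 1 and 1 were lost, beside 21.5% of all such genes. The 1 lost epithelial keratin made up 3.45% of its class, near the 2.98% lost over all coding genes. KRT7 and KRT23 were the 2 epithelial keratins marked in all 4 siSUV420H1 libraries.

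Peaks covered less of the genome as a whole in the treated libraries of both arms, and keratins were set against it. Summed over the 55 genes, 126 kb ± 14.2 lay under peaks in DMSO cells and 8.88 kb ± 4.46 after A-196 (SD, n = 3 each), or 0.856 ± 0.116 and 0.0918 ± 0.0404 kb per covered Mb. With siNC the sum was 73.8 kb ± 3.81 and with siSUV420H1 20.6 kb ± 5.76 (SD, n = 4 each), or 0.394 ± 0.0262 and 0.167 ± 0.0533 kb per covered Mb. On this scale 12 of the 13 lower keratins of the A-196 arm and 9 of the 10 of the siRNA arm were still lower in every library. The exceptions were KRT34 in the A-196 arm and KRT39 in the siRNA arm, whose groups overlapped on this scale. KRT34 was higher in every siSUV420H1 library. The part that depth or enrichment of the libraries had in these differences was not tested.

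Across the type I cluster (chromosome 17, 40654665 to 41624575, 970 kb), 2 broad stretches held 8 of the 16 keratins with a covered base in the A-196 arm. Peaks joined over all libraries of the arm made 1 region of 103 kb (40900001 to 41003000). It ran over KRT23, KRT39 and KRT40 into the keratin-associated protein genes KRTAP3-3 and KRTAP3-2, which encode matrix proteins of the hair shaft. A second of 113 kb (41311001 to 41424000) ran over KRT33A, KRT33B, KRT34, KRT31 and KRT37. The longest unbroken segment covered in every DMSO library was 80 kb in the first and 111 kb in the second. The first was covered over 97.3 kb ± 2.89 in DMSO cells and 5 kb ± 5 after A-196, and the second over 112 kb ± 0.577 and 17.3 kb ± 4.62 (SD, n = 3 each). Over the whole cluster the covered length was 425 kb ± 12.2 in DMSO cells, 48 kb ± 12.1 after A-196, 278 kb ± 2.63 with siNC and 110 kb ± 8.30 with siSUV420H1.

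**Figure D3:**
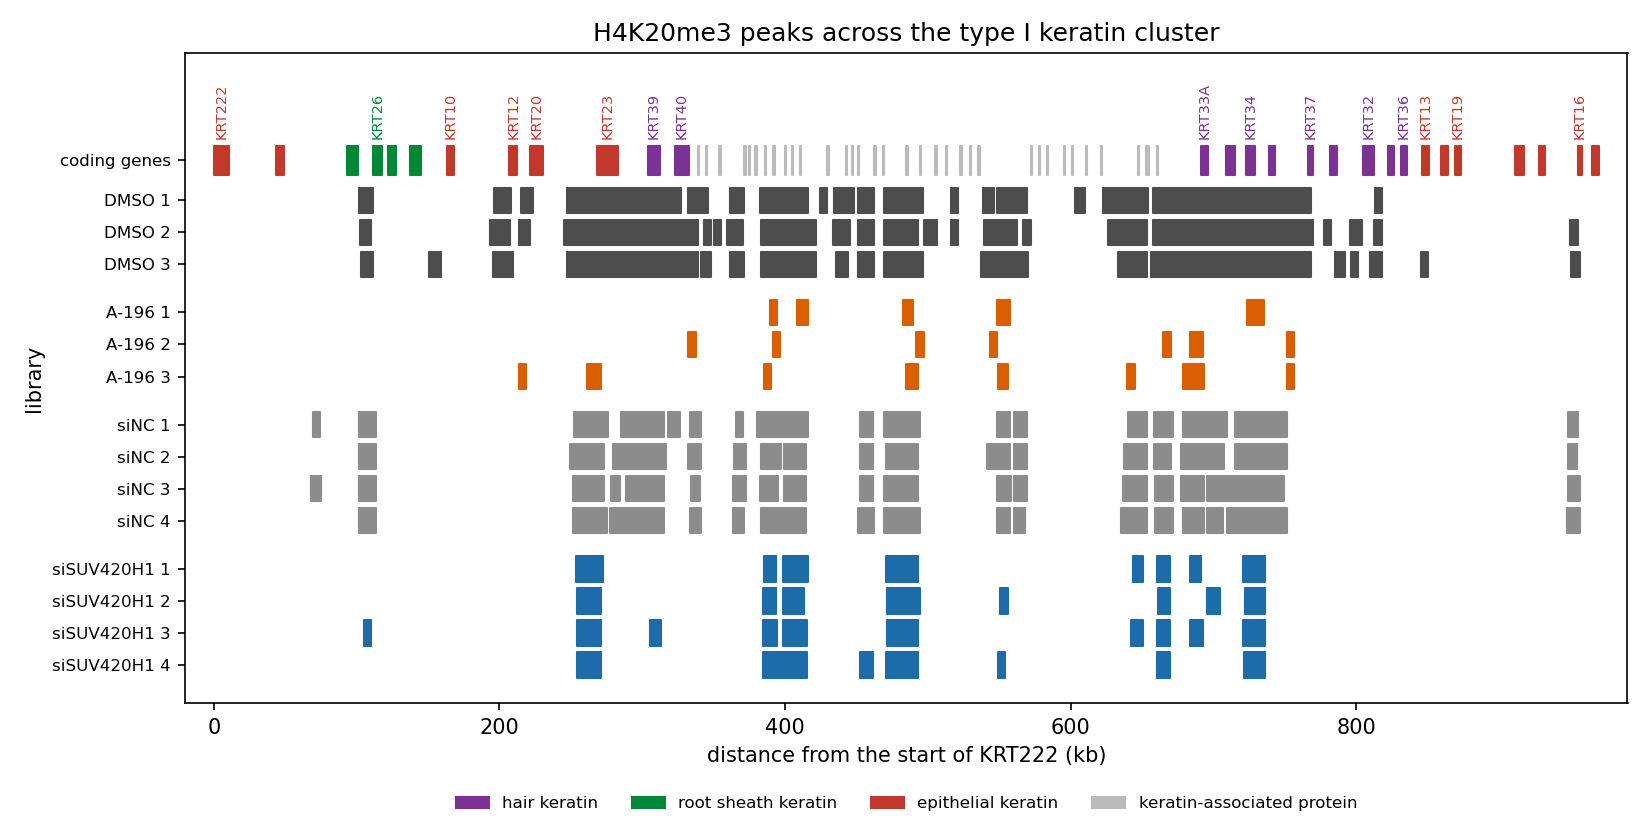
Peaks of each library (bars) across the type I keratin cluster, by distance in kb from the start of KRT222, with coding genes above coloured by class. The long DMSO bars over KRT23, KRT39 and KRT40 and over KRT33A to KRT37 are short or missing with A-196. The siNC bars end before KRT37 and reach little of KRT40. With siSUV420H1, bars stay over KRT34 and over part of KRT23 (17 to 19 kb, beside 22 to 24 kb with siNC). All 4 siSUV420H1 libraries share 6 segments, and all 3 A-196 libraries share none.

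The peaks that were left in the cluster after A-196 overlapped in part between 2 of the libraries, but at no place in all 3. Over the whole genome, too, A-196 libraries shared less of their covered bases with each other (Jaccard index 0.277 to 0.385) than DMSO libraries did (0.742 to 0.762), and A-196 library 2 stood apart with 13464 peaks against 8505 and 9798. In the type I cluster, 354 kb were covered in every DMSO library and no 1 kb bin was covered in every A-196 library, although each A-196 library had 41 to 62 kb of the cluster under peaks. After the siRNAs, 84 kb in 6 segments were covered in all 4 siSUV420H1 libraries, and 83 kb of these were covered in every DMSO and siNC library too. Of these 6 segments, 1 lay on KRT23 (40909001 to 40926000) and 1 on KRT34 (41377001 to 41391000). A further 3 touched KRTAP genes, and the sixth held no coding gene.

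The type II cluster (chromosome 12, 52168996 to 52952906, 784 kb) was covered at its KRT80 end only. From KRT75 to KRT18, a stretch that holds 19 keratins, no base was under a peak in any of the 14 libraries. From KRT86 to KRT82, which holds the type II hair keratins, 32.7 kb ± 4.93 were covered in DMSO cells and 2.11 kb ± 2.59 after A-196 (SD, n = 3 each), and 17.5 kb ± 4.36 with siNC and 6.25 kb ± 0.5 with siSUV420H1 (SD, n = 4 each).

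**Figure D4:**
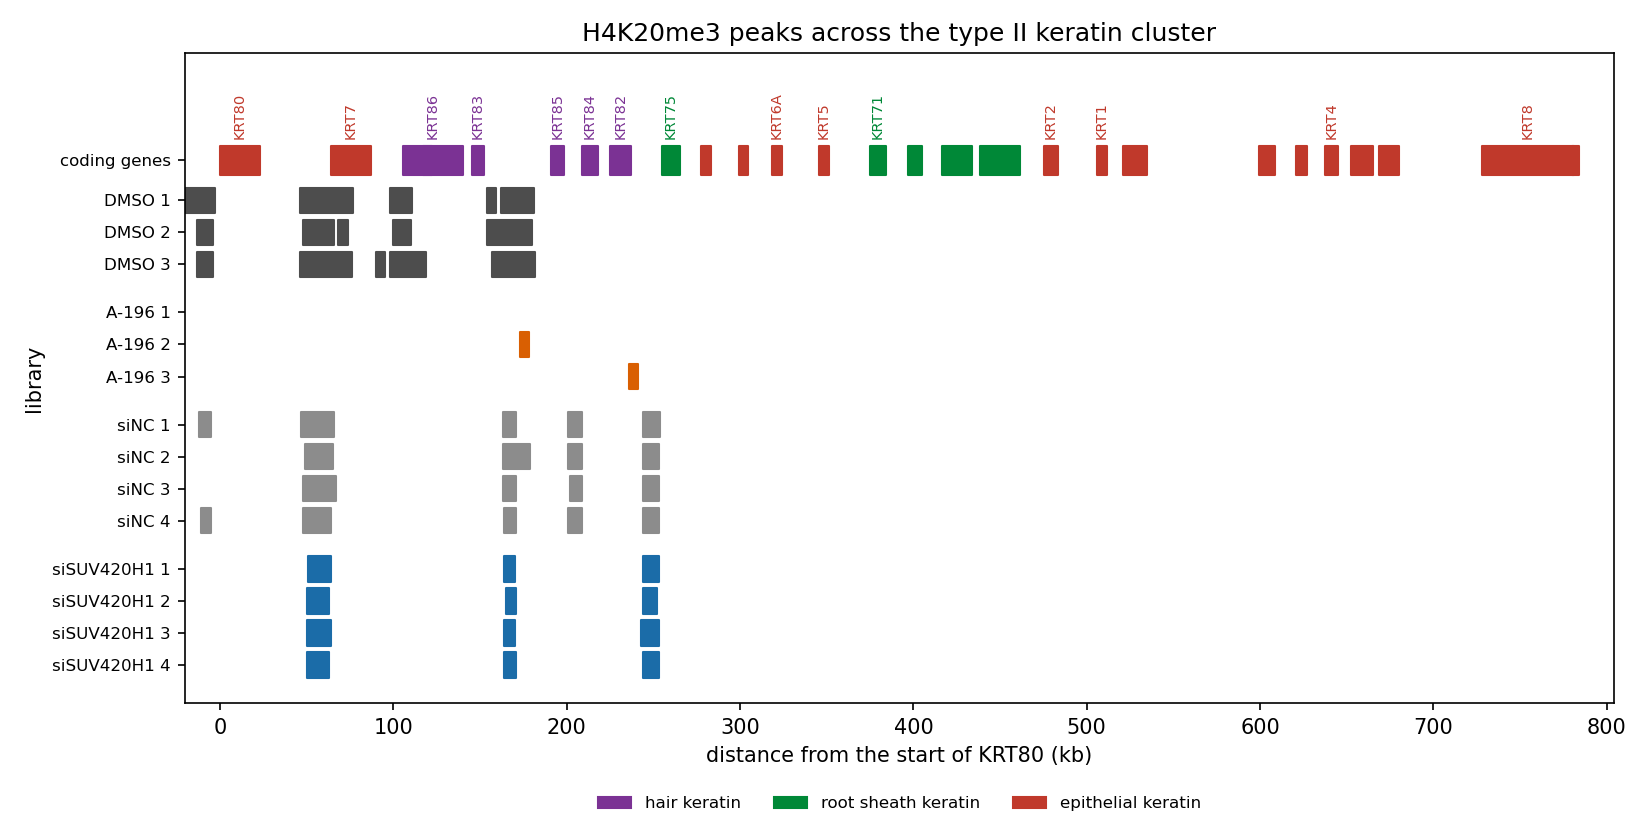
Peaks of each library (bars) across the type II keratin cluster, by distance in kb from the start of KRT80, with coding genes above coloured by class. No library has a peak from KRT75 to the KRT8 and KRT18 end, and the domain beside KRT7 has no bar with A-196 and is 13 to 14 kb long with siSUV420H1.

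The KRT7 domain lay mostly between KRT80 and KRT7. In the A-196 arm it spanned 31 kb (52215001 to 52246000), with 28.3 kb ± 3.79 covered in DMSO cells and 0 kb after A-196. In the siRNA arm 17.5 kb ± 1.73 were covered with siNC and 13.2 kb ± 0.5 with siSUV420H1 (SD, n = 4 each), and 12 kb of it (52220001 to 52232000) were covered in every DMSO, siNC and siSUV420H1 library. That 12 kb segment lies just outside the span of KRT7, which begins at 52233243. Beside KRT75, a keratin of the companion layer, peaks joined over the libraries of the siRNA arm made a region of 11 kb (52412001 to 52423000). It was covered over 9.25 kb ± 0.5 with siNC and 9 kb ± 0.816 with siSUV420H1.

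**Figure D5:**
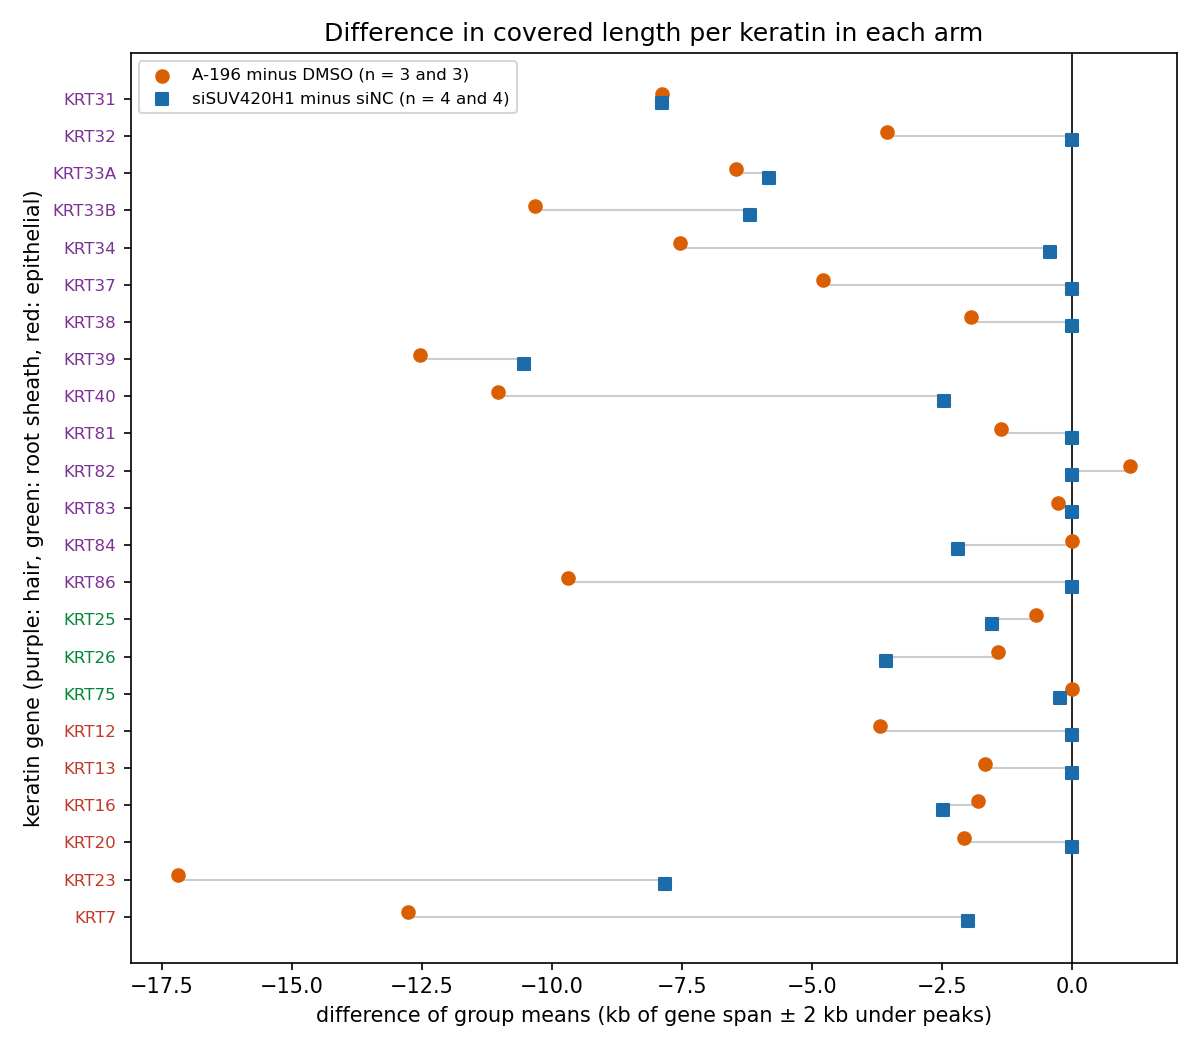
Difference of group means in covered kb for the 23 keratins, A-196 minus DMSO (circles) and siSUV420H1 minus siNC (squares), with a grey line joining the pair. KRT7, KRT86, KRT23, KRT40 and KRT34 have the widest gaps, with the A-196 value further from 0, KRT25, KRT26, KRT84, KRT75 and KRT16 lie further from 0 in the siRNA arm, and KRT82 is the single gene above 0.

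The differences of the arms were set against each other in an exact permutation test that reassigned the libraries inside both arms. Its null is no difference in either arm, so a small p can come from 1 arm alone and does not show that the arms differ. This test called 0% of 6622 genes at the adjusted threshold, and 1 keratin, KRT84, had an unadjusted p under 0.05 (difference 2.19 kb, exact p = 0.0286, adjusted p = 0.244). KRT84 had no covered base in the A-196 arm, so this value repeats its siRNA difference and compares no A-196 difference. The A-196 difference minus the siRNA difference was -10.8 kb for KRT7 and -7.13 kb for KRT34 (exact permutation p = 0.1, adjusted p = 0.461 for each). In both genes that p equals the one of the A-196 arm alone, so it may repeat that arm's difference. KRT31 went from its whole window to 0 in both arms, so its difference of -7.89 kb in each is the largest possible and does not compare the arms. A keratin lost in 1 arm and not in the other was thus not shown to differ between them.

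The controls of the arms did not mark the same keratins. KRT86, KRT37, KRT32 and KRT12 were marked in every DMSO library and had no covered base with siNC, so the siRNA arm gives no value for their loss. KRT84 was marked in every siNC library and had no covered base with DMSO. KRT39, KRT31 and KRT34 were covered over their whole window in all 7 control libraries, where the measure can show no difference. The arms were called against different IgG libraries, and that cannot be told apart from the treatment of the controls.

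Genes that work with keratins were counted in the same way. Of 22 desmosome and keratin linker genes, 4 (18.2%, beside 1.78% of all coding genes) were lost with A-196, the desmosomal cadherins DSG1, DSG4 and DSC1 and DSP, which ties keratin filaments to the desmosome. In the siRNA arm 2 (9.09%, beside 2.98%) were lost, DSG1 and DSG4, the latter a desmoglein of the hair follicle, and 3 (13.6%, beside 6.74%) were lower. DSG1 was covered over 9.25, 7.25 and 12.2 kb with DMSO and over 4.25, 3.25, 4.25 and 4.25 kb with siNC, and was at 0 in all treated libraries. With DMSO, DSC1 had 13.6, 12.9 and 5.86 kb covered, DSG4 2.91, 1.91 and 1.91 kb, and DSP 2.33, 1.33 and 0.33 kb. The last value of DSP lay near the 200 bp needed. Of 20 hair and epidermal transcription factors, 3 were marked in every DMSO and 2 in every siNC library, so few could be lost, and none was. In each arm 2 (10%) were lower, KLF5 and TP63, the regulator of stratified epithelia. That share lay near the 5.51% and 6.74% of all coding genes. TP63 kept 57.3 to 110 kb of its 203 to 234 kb with A-196 and 50.3 to 58.3 kb of its 117 to 127 kb with siSUV420H1.

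Of 16 other intermediate filament genes, 1 was marked in every DMSO library, so no more than 1 could be lost with A-196. None was lost with A-196, beside 1.78% of all coding genes. In the siRNA arm 1 (6.25%, beside 2.98%) was lost, DES, from 0.624 kb in each siNC library. Of 22 markers of fibroblasts, endothelium, leukocytes and melanocytes, 1 was marked in every DMSO library, so no more than 1 could be lost with A-196. None of these markers was lost or lower with A-196, beside 1.78% and 5.51% of all coding genes. After the siRNAs 2 of the markers (9.09%, beside 2.98% of all coding genes) were lost, DCN and PECAM1. Lower in every treated library were 4 (18.2%, beside 6.74%), and 1, CDH5, was higher, as were 2.08% of all coding genes. These marker peaks show where the mark lay and do not measure whether such cells were present.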

How the data were processed

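H4K20me3 CUT&RUN was analysed in 14 libraries, grouped by their titles; the other 10 samples in the labels (IgG, H3K4me3 and H3K27me3) were not analysed here. The deposited values are the other kind of measurement, start and end positions in base pairs of broad peaks, 1 list per library, with no score, p-value or count. The submitters' processing notes name hg38, bedtools 2.30.0, Picard 2.27.3, cutadapt 4.4 and Bowtie. The deposited lists' labels state removal of duplicates and calling against IgG. Which caller made them is not given in the sources used here. Peaks began and ended on a grid of 1000 bp and the narrowest peak was 5 kb, so smaller differences are not visible. Depth was unknown, so no interval is given.

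Gene spans and promoters came from RefSeq tables of GRCh38; a promoter counts as covered with at least 200 bp under peaks. The span table has no strand or exons, so positions in exons or introns are not given. Covered kb were compared gene by gene with exact two-sided permutation tests over all 20 (A-196 arm) or 70 (siRNA arm) assignments, and between arms over 1400, with Benjamini-Hochberg adjustment over all genes with a covered base; the test was checked on simulated data. Python 3.11.15 with numpy 2.4.6, pandas 2.3.3 and scipy 1.17.1 was used. The members, classes and other lists (desmosome and keratin linker, other intermediate filament, hair and epidermal transcription factor, markers of other cell types) were chosen with earlier results of these data known. Named were keratins lost, gained, lower or higher, those with a group mean of at least 5 kb, and lost members of other lists; library values were given for the 8 largest differences per arm. Other genes named were chosen after their values were seen. Alternatives covered overlap, flanks, width and number of peaks, merging, scale, group median, replicate numbers, libraries left out, promoters and class limits. Lost keratins were also counted by joined region in place of by gene. Chosen after seeing the data were chromosome 17 alone and near-identical copies left out.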

Additional observations from a re-analysis of the deposited data

Results flagged for a closer look

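Single libraries stood apart from the other 3 of their group in 9 values of the siRNA arm, where 1 library lay at one end and most of the others shared 1 value. In siSUV420H1 library 3, KRT39 had 8 kb under peaks and KRT26 0.763 kb, while the other 3 libraries were at 0 for both genes. The same library was therefore the only one of its group with a marked root sheath keratin (1 gene, 0.763 kb summed over the class). In siSUV420H1 library 1, KRT23 had 6.30 kb covered and the other 3 had 5.30 kb. In siNC library 1, KRT75 had 0.931 kb covered and the others 0, so that library had 3 marked root sheath keratins and 6.24 kb summed over the class, while the other 3 had 2 marked. In siNC library 3, 6 hair keratins were marked and 7 in the others, with KRT40 covered over 0.135 kb and so below the 200 bp needed. Peak ends on a 1000 bp grid make ties common, and a single step of the grid is enough to set a library apart. The limit used sets apart about 1 in 20 groups by chance where values are not tied; with these ties that rate does not hold.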

How the results depend on the processing

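Of 329 counts over all alternatives, 305 stayed within 1.5 times the reported count, but part of these could not change. Lost and gained calls do not use the scale, group median or replicate block, and leaving out KRT222, which had no covered base, changes nothing. In the A-196 arm no gene could pass adjustment under any alternative. The difference in covered kb kept its sign in all 297 values for the 8 keratins with the largest differences per arm. For A-196, epithelial keratins lost numbered 2 without flanks, with 5 kb flanks or with peaks at or above the median width. They also numbered 2 with root sheath keratins counted as epithelial, and 0 on chromosome 17 alone or by promoters. Neither count of 0 could include KRT7, the only epithelial keratin in the reported count. KRT7 lies on chromosome 12 and its promoter was not found. By promoters 4 keratins were lost. In the siRNA arm, gene spans without flanks gave 2 lost and 6 lower keratins, 1 lost hair and 0 lost epithelial keratins. The same number of widest peaks per library gave 3 lost keratins and 0 epithelial, near-identical copies left out gave 3 and 0, wide peaks gave 0 epithelial, and root sheath keratins counted as epithelial gave 2. By promoters 1 keratin was lost there, a hair keratin, and 0 epithelial. KRT16, the only lost epithelial keratin of this arm, was itself left out with the near-identical copies, and its promoter was not found. Neither of these counts could therefore include it. Per covered Mb 1 keratin was higher. With single libraries left out, 8 to 11 keratins were lost with A-196 and 5 to 7 with siSUV420H1, and epithelial keratins lost with A-196 ranged from 1 to 3, with 2 without DMSO library 1 or 3 and 3 without A-196 library 3. Without siSUV420H1 library 3, KRT26 and KRT39 were lost as well. With the replicate number as a block (the replicate block), 13 and 11 keratins were lower in every same-numbered comparison of the A-196 and siRNA arm. The exact test that swaps same-numbered libraries gives no p below 0.25 in the A-196 and 0.125 in the siRNA arm, so no gene could pass. Same-numbered libraries deviated together with correlations of -0.14 to -0.0067 and -0.51 to 0.14, so the numbers do not pair them. Depth was unknown, domains under 5 kb could not be seen, and weak signal under the caller's threshold leaves no peak.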

Other observations

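Between KRT40 and KRT33A, the type I cluster holds a stretch of 359 kb with 34 keratin-associated protein genes, whose products cross-link hair keratins, and no keratin. Peaks covered 212 kb ± 13.2 of it in DMSO cells and 34.7 kb ± 5.55 after A-196 (SD, n = 3 each), and 142 kb ± 3.06 with siNC and 71.3 kb ± 7.05 with siSUV420H1 (SD, n = 4 each). In the 144 kb from KRT33A to KRT36, which hold hair keratins, 92.6 kb ± 9.24 were covered in DMSO cells, 8.27 kb ± 3.27 after A-196, 54.2 kb ± 1.71 with siNC and 17.7 kb ± 3.60 with siSUV420H1. From KRT13 to KRT17, where epithelial keratins such as KRT14, KRT15 and KRT19 lie, 5.34 kb ± 5.04 were covered in DMSO cells and 7.5 kb ± 1.29 with siNC, and none in any treated library. These differences between stretches were not tested.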
